A study of Rattus norvegicus with 12 samples.

Results

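Genes of potassium channels were followed in cultured rat hippocampal neurons after oxygen-glucose deprivation (OGD), in which cells are kept for a time without oxygen and glucose as an in vitro model of global ischemia. The members were the genes whose rat symbol starts with Kcn and that had a probe on a whole-genome Agilent array, with 1 probe for each gene, the one with the highest mean log2 intensity over the 12 arrays. That gave 90 of the 15148 genes named here, from 117 probes. The RefSeq table holds 7 further Kcn symbols for which no probe was named here, among them Kcnd2l1, Kcnk7, Kcnq5, Kcnu1 and the pseudogenes Kcnk16-ps1 and Kcnk6-ps1.

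The neurons came from hippocampi of Wistar rats at embryonic day 18 as labelled, or 18 to 19 by the methods, and had been in Neurobasal medium for 14 to 15 days. Cultures of the OGD groups spent 2 h in a saline buffer with sucrose and no glucose inside an anaerobic chamber, and control cultures spent the same time in the buffer with glucose under air and CO2, so both had their medium exchanged. Conditioned medium was then returned, and RNA was taken after 7 h or 24 h of recovery from 3 independent cultures in each of the 4 groups (Ctrl 7h, OGD 7h, Ctrl 24h and OGD 24h), 1 culture on each of 12 one-color arrays. As a model these are embryonic neurons matured in a dish, without blood flow, and wells of a condition were pooled, so RNA of all their cells was measured together. All 11 neuron markers with a probe, such as Map2, Tubb3 and Snap25, were well above background on all 12 arrays, as were all 7 astrocyte markers, 7 of 8 oligodendrocyte markers, 5 of 8 microglia markers and 5 of 9 markers of vascular cells and fibroblasts.

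Potassium channels let potassium leave the cell along its gradient, which holds the resting membrane near its negative potential, ends the action potential and spaces the next one. The Kv families open on depolarization, the Kcnj (Kir) channels pass current near rest, the Kcnk (two-pore) channels carry leak current, and the Kcnm and Kcnn channels open when calcium enters. When ATP runs low in ischemia, channels built from Kcnj8 or Kcnj11 with a sulfonylurea receptor open, and potassium lost from neurons gathers outside them.

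Each level given here is the log2 intensity of a gene's probe minus the median of its array, and each change is the mean level on the OGD arrays minus that on the control arrays of the same time, with its standard error (SE) from limma. Levels of different probes cannot be set against each other, so a level is compared only with that of the same gene on other arrays. The median spot intensity ran from 130.6 units on the OGD 24h replicate 1 array to 660.3 on the Ctrl 7h replicate 1 array, and the array of OGD 7h replicate 1, at 234.2, was the dimmest at its time. Of the 90 members, 64 were well above background on all 12 arrays and 4 on none (Kcnj15, Kcnk15, Kcne3 and Kcng4). A gene was called when its unadjusted limma p was under 0.05 and its fold at least 2, the threshold of the study's methods. After Benjamini-Hochberg adjustment over all 30367 probes, 0 members had an adjusted p under 0.05 in limma, against 15 at 7 h and 21 at 24 h before adjustment, with minimum adjusted values of 0.219 for Kcnk6 at 7 h and 0.252 for Kcnip3 at 24 h.

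More Kcn genes were below their control level than above it after OGD, and few by a factor of 2. At 7 h, 60 of the 90 changes were below 0, with a median of -0.21, while the median over all named genes was -0.11. At 24 h, 66 were below 0, with a median of -0.41 against -0.03 over all named genes. With another background correction (normexp) the Kcn median at 7 h was 0.09 against -0.10 over all named genes, so both its sign and its place beside all genes turned, and at 24 h it was -0.17. Scaling to the spike-in probe put the median of all named genes at -0.88 and -1.05 and the Kcn medians at -0.99 and -1.43. That scaling rests on 1 of 10 spike-in probes, the only one neither dim nor saturated on any array. RNA of whole cultures was measured, in which fewer cells of a type and less RNA per cell cannot be told apart.

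At 7 h, 2 members were called higher, Kcnj1 and Kcnj8, where 1.56% of all named genes were. Called lower at 7 h were 4 members, Kcna6, Kcnj4, Kcnk6 and Kcns1, against 2.07% of all named genes. At 24 h, 3 were called higher (Kcnj1, Kcnj8 and Kcna10, background 2.74%) and 6 lower (Kcna6, Kcnj4, Kcnk4, Kcnip2, Kcng2 and Kcns3, background 2.38%). As shares of the 90 members these counts are 2.22% and 4.44% at 7 h and 3.33% and 6.67% at 24 h. Every OGD array lay below every control array for 23 members at 7 h, or 25.6%, where 17.9% of all named genes did so, and for 18 at 24 h, or 20%, where 7.55% did. In the other direction, every OGD array lay above every control array for 7 members at 7 h (background 7.58%) and 4 at 24 h (background 9.06%). The members lower on every OGD array at both times were 7: Kcnj4, Kcnj11, Kcnj12, Kcnk4, Kcnk12, Kcnip1 and Kcnip3. Only Kcnj8 was higher on every OGD array at both times.

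**Figure D1:**
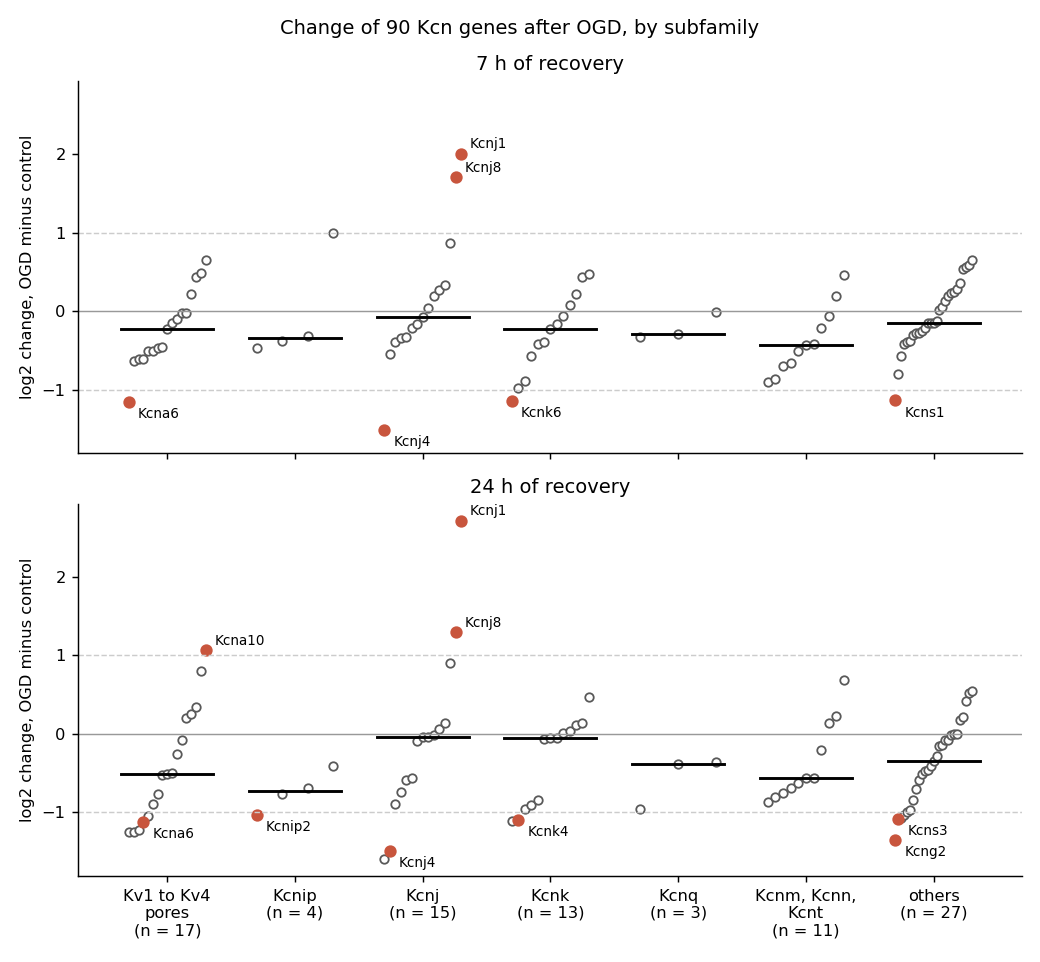
Each point is the log2 change of 1 Kcn gene (OGD minus control, 3 arrays a group), sorted within its subfamily, with the subfamily's median as a black line, dashed lines at a fold of 2 and the called genes filled and named. Most points lie below 0 at both times, and the Kcnj channels hold Kcnj8 and Kcnj1 above 0 and Kcnj4 below it. The Kcnj1 points are fitted changes. No control array was well above background for Kcnj1, so bounds on its group means are given, 2.22-fold at 7 h and 1.55-fold at 24 h. They make no allowance for the spread between arrays. With normexp the medians of Kcnj at both times, of Kcnk at 24 h and of the other subunits at 7 h were above 0. With the 75th percentile those of Kcnj at both times and of Kcnk at 24 h were above 0.

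The Kv1 to Kv4 pores, the Kcna, Kcnb, Kcnc and Kcnd subunits that form delayed rectifier and A-type channels, had 13 of 17 changes below 0 at 7 h (median -0.22) and 12 of 17 at 24 h (median -0.51). The control and OGD arrays of a replicate number and time shared a slide. Within the slides of replicates 1, 2 and 3 the median at 24 h was -1.29, -0.02 and -0.02, so it was far below 0 only on the first. Called were Kcna6, lower at both times, and Kcna10, higher at 24 h. Kcna6, a Kv1 pore, read 3.04, 3.21 and 2.61 on the control arrays of replicates 1, 2 and 3 at 7 h and 1.00, 2.22 and 2.16 on the OGD arrays, where every OGD array was below every control array. The change was -1.16 (SE 0.46, limma adjusted p = 0.37). At 24 h it read 3.55, 2.79 and 2.59 in control and 1.04, 2.74 and 1.78 after OGD, with the second OGD array inside the control range, and the change was -1.12 (SE 0.46, limma adjusted p = 0.332). A second Kcna6 probe gave -0.32 at 7 h and -0.32 at 24 h and was not called. Without the OGD replicate 1 array of the time, the changes of the first probe were -0.76 and -0.72, and neither was called. The call at 7 h also ended without Ctrl 7h replicate 1 or 2, and that at 24 h without Ctrl 24h replicate 1 or OGD 24h replicate 3.

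Kcna1 and Kcna4, pores of axonal low-threshold and A-type channels, had changes of -1.25 and -1.25 at 24 h but were not called (limma adjusted p = 0.399 for Kcna1 and adjusted p = 0.384 for Kcna4). In both, 1 array stood apart. Kcna1 read 3.802, 6.13 and 6.86 on the OGD 24h arrays against 6.88, 7.00 and 6.66 in control, and Kcna4 read -0.16, 1.94 and 2.72 against 3.14, 2.74 and 2.38. Without OGD 24h replicate 1 the changes were -0.35 and -0.42. Kcnd2, the Kv4.2 pore of the dendritic A-type current, had changes of -0.10 and -0.90, and Kcnd3, the Kv4.3 pore, 0.65 and 0.26, none of them called. Those at 24 h without OGD 24h replicate 1 were -0.27 for Kcnd2 and -0.25, with the sign turned, for Kcnd3. Kcnc1 and Kcnc2, the Kv3 pores of fast-spiking cells, had -0.61 and -0.50 at 7 h and -0.76 and -1.23 at 24 h, with SEs of 0.49 and 0.72, and -0.13 and -0.47 at 24 h without that array.

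Kcna2, a Kv1 pore, stood at 0.22 and -0.07, while Kcnb2 (Kv2.2) had 0.43 and -0.50, neither called. Kcna7 differed at 24 h at an unadjusted p under 0.05 without a fold of 2. It read -0.01, -1.66 and -1.20 after OGD and -1.93, -1.78 and -1.57 in control, a change of 0.80 (limma adjusted p = 0.365) that became 0.33 without OGD 24h replicate 1 and -0.22 with the spike-in scaling. Its second probe gave -0.38 at 24 h. Kcna10, another Kv1-like pore, was called higher at 24 h, but it was well above background on 1 of the 12 arrays, an OGD 24h array, and no fold is given. It read -5.35, -5.01 and -4.32 after OGD against -5.97, -6.11 and -5.80 in control, and the call ended without Ctrl 24h replicate 2 or OGD 24h replicate 3. At 7 h, where no array was well above background, its change was -0.61 with an unadjusted limma p under 0.05, and 0.78 with normexp.

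Kcnip genes encode KChIPs, calcium-binding proteins that attach to Kv4 pores and set their surface number and inactivation, and Kcnip3 is also known as DREAM, a calcium-dependent repressor of transcription. All 4 were well above background on every array. At 24 h all 4 changes were below 0, with a median of -0.73 that ran from -1.75 with the spike-in scaling to -0.44 with normexp. Kcnip3 lay lower on every OGD array at both times. It read 0.67, 0.58 and 0.28 in control and 0.01, 0.03 and 0.08 after OGD at 7 h, and 0.89, 0.52 and 0.68 and -0.25, 0.00 and 0.04 at 24 h, so no OGD array reached the lowest control array of its time. The changes were -0.47 (SE 0.18, limma adjusted p = 0.348) and -0.76 (SE 0.18, limma adjusted p = 0.252), below a fold of 2 at both times. Without OGD 24h replicate 1 the change at 24 h was -0.67, with an unadjusted limma p still under 0.05.

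Kcnip2 was called lower at 24 h. It read 0.99, 0.05 and 0.43 in control and -0.88, 0.23 and -0.98 after OGD, where the second OGD array lay between the control arrays, and the change was -1.03 (SE 0.34, limma adjusted p = 0.29). At 7 h the change was -0.38. The call ended without Ctrl 24h replicate 1, OGD 24h replicate 1 or OGD 24h replicate 3, with changes from -1.42 to -0.78 over all arrays left out in turn. Kcnip1 was lower on every OGD array at both times, with small changes of -0.32 and -0.41 that were not called. A second Kcnip1 probe gave -0.72 and -1.22 and was called lower at 24 h.

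Kcnip4 lay above control at 7 h and below it at 24 h. At 7 h it read -0.53, -1.04 and -1.20 in control and 0.81, 0.20 and -0.80 after OGD, with the third OGD array inside the control range, a change of 0.99 (SE 0.37, limma adjusted p = 0.347) just under a fold of 2. At 24 h it read 0.38, 0.01 and -0.39 and -0.85, -0.69 and -0.54, every OGD array below every control array, a change of -0.69 (limma adjusted p = 0.426). Without OGD 7h replicate 1 the change at 7 h was 0.63, with an unadjusted limma p above 0.05.

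**Figure D2:**
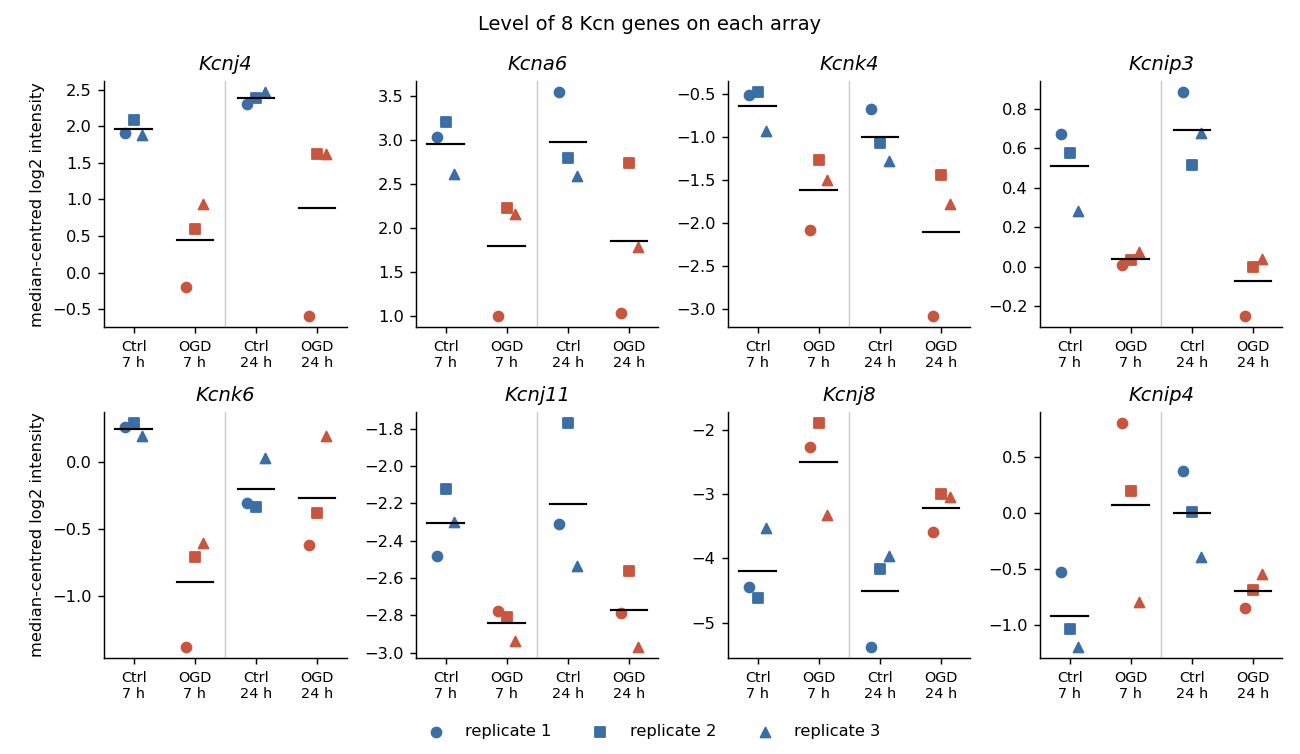
Each panel shows the level (log2 intensity minus the median of the array) of 1 Kcn gene on each of the 12 arrays, with control arrays in blue, OGD arrays in red, the replicate number as the marker shape and group means as black lines. Kcnj4, Kcnk4, Kcnip3 and Kcnj11 lay lower on all OGD arrays at both times and Kcnj8 higher, Kcnk6 lay lower at 7 h alone, and the OGD replicate 1 arrays were the lowest for Kcnj4, Kcna6 and Kcnk4; with normexp the changes of Kcnj11 were above 0.

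The other 27 members are the beta subunits (Kcnab), the Kcne subunits, the silent Kv subunits that work only together with Kv2 pores (Kcnf, Kcng, Kcns and Kcnv), the EAG-related pores (Kcnh) and Kcnrg. Of these, 15 changes were below 0 at 7 h (median -0.15) and 21 at 24 h (median -0.35), and the median at 7 h was 0.35 with normexp. Called lower were 1 at 7 h and 2 at 24 h, and 0 were called higher (0 had an unadjusted limma p under 0.05 in that direction, and the methods' t-test called 0). Kcns1, a silent subunit, read -3.06, -2.81 and -1.85 in control and -3.92, -3.52 and -3.69 after OGD at 7 h, a fitted change of -1.13 (SE 0.32, limma adjusted p = 0.27). No OGD 7h array was well above background for it, so its OGD mean is given as at least 1.97-fold below the control mean. This bound sets the control mean against the higher of the probe's own signal and the lowest signal well above background on each array. It covers dim signal only and makes no allowance for the spread between arrays. The call ended without Ctrl 7h replicate 3, with a change of -0.77, and with normexp the change was 0.48. At 24 h Kcns1 read -3.12, -3.48 and -4.04 after OGD and -4.13, -4.03 and -4.05 in control, which overlapped.

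Kcng2 and Kcns3 were the 2 called lower at 24 h. Kcng2 read 5.21, 4.53 and 4.57 in control and 2.06, 4.20 and 4.0 after OGD, every OGD array lower, with a change of -1.35 (SE 0.49, limma adjusted p = 0.31) that was -0.67 without OGD 24h replicate 1. At 7 h its change was -0.15. Kcns3 read 0.21, -0.92 and -1.01 and -2.70, -1.32 and -0.95, overlapping, with a change of -1.09 (SE 0.46, limma adjusted p = 0.346) that was -0.56 without the same array. Both calls also ended without Ctrl 24h replicate 1, and that of Kcns3 without OGD 7h replicate 1 or 2, which enter through the shared variance.

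Kcnf1, a silent subunit of cortical and hippocampal neurons, was below control at both times. It read 0.46, 0.46 and 0.83 in control and -0.61, -0.45 and -0.11 after OGD at 24 h, every OGD array lower, with a change of -0.97 (SE 0.25, limma adjusted p = 0.262) that stayed at -0.87 without OGD 24h replicate 1. At 7 h the change was -0.57 (limma adjusted p = 0.416), or -0.32 without OGD 7h replicate 1. Kcng1 had 0.65 at 7 h, with every OGD array higher (-0.13 with the spike-in scaling), and -1.03 at 24 h, or -0.40 without OGD 24h replicate 1, while its second probe gave -0.58 and -0.30. Kcnh2, the ERG pore, had -0.31 and -0.99 (limma adjusted p = 0.328 at 24 h, and -0.60 without that array), and its second probe, at -0.96 and -1.03, was called lower at 24 h. Kcnab2, a beta subunit that helps bring Kv1 channels to axons, had -0.13 and -0.59 (limma adjusted p = 0.33 at 24 h), and Kcnab1, which gives Kv1 channels fast inactivation, -0.25 and -0.70, uncalled, the latter -0.36 without that array.

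Kcnq genes encode pores of slowly opening channels. Kcnq3 is part of the M-current channels that damp repetitive firing, and Kcnq1 is best known from heart and epithelia. All 3 changes were below 0 at both times and 0 were called (0 had an unadjusted limma p under 0.05, and the methods' t-test called 0). Kcnq3 had -0.01 at 7 h and -0.96 at 24 h, from 3.82, 2.94 and 2.38 in control to 1.58, 2.25 and 2.45 after OGD, and -0.57 without Ctrl 24h replicate 1. Its second probe gave -0.25 at 7 h and -1.12 at 24 h (limma adjusted p = 0.254) and was called lower at 24 h.

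Among the 11 Kcnm, Kcnn and Kcnt genes, pores and beta subunits of large- and small-conductance calcium-activated channels and of sodium-activated channels, 9 changes were below 0 at 7 h (median -0.43) and 8 at 24 h (median -0.57), and 0 were called (an unadjusted limma p under 0.05 was reached by Kcnn1 and Kcnt1 at 7 h and by Kcnmb2 and Kcnn4 at 24 h, and the methods' t-test called 0). Their median at 24 h differed in sign between slides, at -1.40, -0.34 and 0.175 for replicates 1, 2 and 3. Kcnn1, the SK1 pore, read -0.21, -0.19 and -0.36 in control and -1.46, -0.89 and -0.99 after OGD at 7 h, every OGD array lower, with a change of -0.86 (SE 0.27, limma adjusted p = 0.29). At 24 h its change was -0.57. Kcnn2 (SK2) and Kcnn3 (SK3), which carry much of the afterhyperpolarization in hippocampal neurons together with SK1, were also lower on every OGD array at 7 h, with changes of -0.90 and -0.66, and had -0.87 and -0.76 at 24 h. Without OGD 24h replicate 1 the changes at 24 h were -0.28 for Kcnn1, 0.14 for Kcnn2 and -0.38 for Kcnn3. Kcnt1, a sodium-activated pore, was lower on every OGD array at 7 h with a change of -0.43 (limma adjusted p = 0.416, and -0.28 without Ctrl 7h replicate 1), and had -0.21 at 24 h.

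Kcnma1, the pore of the BK channel, was measured by 3 probes that disagreed in sign. The brightest read 1.75, 1.77 and 2.39 in control and 3.47, 1.79 and 1.34 after OGD at 24 h and gave changes of 0.46 and 0.23. The others gave -0.37 and -1.12, and -0.67 and -0.64, the former called lower at 24 h. Kcnmb4, the neuronal BK beta subunit, had -0.50 and -0.63, the latter -0.26 without OGD 24h replicate 1, and Kcnmb2, a beta subunit that inactivates BK channels, -0.06 and -0.81 (limma adjusted p = 0.313 at 24 h, and -0.51 without Ctrl 24h replicate 1), with a second Kcnmb2 probe called lower at 24 h at -1.07. Kcnn4, the intermediate-conductance channel found in microglia, was the 1 gene of this set above control with an unadjusted limma p under 0.05, at -3.59, -3.61 and -3.31 after OGD against -4.72, -3.88 and -3.96 in control (change 0.68, limma adjusted p = 0.354). It was well above background on 2 arrays of each 24 h group and on none at 7 h, and its change at 24 h was -0.34 with the spike-in scaling and 0.42 without Ctrl 24h replicate 1.

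The 13 Kcnk genes encode two-pore channels that carry background potassium current. Of their changes, 9 were below 0 at 7 h (median -0.23) and 8 at 24 h (median -0.06, or 0.06 with the 75th percentile and 0.01 with normexp). Kcnk6 (TWIK2) was called lower at 7 h and had the lowest p of all members at that time. It read 0.26, 0.29 and 0.19 in control and -1.38, -0.71 and -0.61 after OGD, with every OGD array well below the control arrays, which lay close together. The change was -1.14 (SE 0.26, limma adjusted p = 0.219), or -0.90 without OGD 7h replicate 1, where the unadjusted limma p stayed under 0.05 and the fold fell below 2. At 24 h Kcnk6 overlapped, at -0.31, -0.34 and 0.03 in control and -0.62, -0.38 and 0.19 after OGD.

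Kcnk4 (TRAAK), opened by stretch and lipids, read -0.52, -0.48 and -0.93 in control and -2.09, -1.27 and -1.51 after OGD at 7 h, a change of -0.98 (limma adjusted p = 0.375). At 24 h it read -0.67, -1.07 and -1.28 and -3.09, -1.45 and -1.78, a change of -1.098 (SE 0.39, limma adjusted p = 0.307) that was called lower. Every OGD array was below every control array at both times. Without OGD 24h replicate 1 the change at 24 h was -0.61, uncalled, and the call also ended without Ctrl 24h replicate 1. Kcnk12 (THIK2) was lower on every OGD array as well, with -0.57 and -0.96 (limma adjusted p = 0.285 at 24 h, and a change of -0.65 without OGD 24h replicate 1).

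Kcnk3 (TASK1), an acid-sensitive leak channel, was slightly above control on every OGD array at 7 h, from 1.95, 1.63 and 1.76 in control to 2.19, 2.19 and 2.25 after OGD, a change of 0.43 (SE 0.17, limma adjusted p = 0.375) that was -0.35 with the spike-in scaling and -0.02 with normexp. At 24 h it had 0.11. Kcnk9 (TASK3) had -0.39 at 7 h, where the groups overlapped and no OGD array was well above background, and -0.84 at 24 h, or -0.35 without Ctrl 24h replicate 2. Kcnk1 (TWIK1) had -0.89 and -1.11, the latter -0.24 without OGD 24h replicate 1. The lipid- and stretch-gated Kcnk2 (TREK1) and Kcnk10 (TREK2) had -0.42 and 0.08 at 7 h and -0.05 and 0.01 at 24 h, and Kcnk2 had -0.03 at 7 h without OGD 7h replicate 1.

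The 15 Kcnj genes lay on both sides of control, and leaving aside Kcnj1, for which there is only a bound, their changes ran from -1.51 (Kcnj4) to 1.71 (Kcnj8) at 7 h and from -1.59 (Kcnj6) to 1.30 (Kcnj8) at 24 h. At 7 h, 8 were below 0, with a median of -0.07, and 10 at 24 h, with a median of -0.04. Those medians were 0.04 and 0.07 with the 75th percentile and 0.63 and 0.31 with normexp. Of these genes, 6 were well above background on all 12 arrays.

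Kcnj4 encodes Kir2.3, a strong inward rectifier of forebrain neurons that sits at postsynaptic sites, and it was called lower at both times. At 7 h it read 1.91, 2.09 and 1.88 on the control arrays and -0.19, 0.60 and 0.94 on the OGD arrays, and at 24 h 2.30, 2.38 and 2.46 and -0.59, 1.62 and 1.63. The control arrays were close together and every OGD array was below them, most so replicate 1. The changes were -1.51 (SE 0.52, limma adjusted p = 0.32) and -1.50 (SE 0.52, limma adjusted p = 0.295). Without OGD 7h replicate 1 the change was -1.19 and without OGD 24h replicate 1 -0.76, and each ended its call, the former through p and the latter through the fold.

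Channels that open when ATP falls are built from Kcnj11 (Kir6.2), the pore of most neurons, or Kcnj8 (Kir6.1), the pore of vascular smooth muscle, pericytes and some glia, each with a sulfonylurea receptor, Abcc8 or Abcc9. Kcnj8 was called higher at both times. It read -4.45, -4.62 and -3.53 in control and -2.26, -1.89 and -3.32 after OGD at 7 h, and -5.38, -4.17 and -3.96 and -3.58, -3.00 and -3.04 at 24 h, every OGD array above every control array. The changes were 1.71 (SE 0.47, limma adjusted p = 0.266) and 1.30 (SE 0.47, limma adjusted p = 0.307). Its signal was low, well above background on 1 control and 2 OGD arrays at each time. The call at 7 h was the only one of the 15 calls that no single array left out ended, and that at 24 h ended without Ctrl 24h replicate 1, OGD 24h replicate 2 or OGD 24h replicate 3, with changes from 0.86 to 1.57.

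Kcnj11 read -2.48, -2.12 and -2.30 in control and -2.78, -2.81 and -2.94 after OGD at 7 h, and -2.31, -1.77 and -2.54 and -2.79, -2.56 and -2.97 at 24 h. Every OGD array was below every control array, by little, and the changes were -0.54 (SE 0.22, limma adjusted p = 0.381) and -0.57 (SE 0.22, limma adjusted p = 0.316), below a fold of 2; with normexp they were 0.46 and 0.16, and without Ctrl 24h replicate 2 that at 24 h was -0.35. Abcc8 had -0.28 at 7 h and -1.100 at 24 h (limma adjusted p = 0.326), called lower at 24 h, but -0.44 without OGD 24h replicate 1, and Abcc9 had 0.17 and -0.63, with no 7 h array well above background. Of the 9 markers of vascular cells and fibroblasts, 4 were above 0 at 7 h and 5 at 24 h, and their mean level ran from -0.71 to 0.44 on control and -0.95 to 0.02 on OGD arrays at 7 h and from -0.91 to -0.01 and -0.08 to 0.28 at 24 h. The pericyte genes Pdgfrb and Rgs5 had -0.10 and -1.33 at 7 h and 1.34 and 0.14 at 24 h, Pdgfrb called higher at 24 h and Rgs5, well above background on 1 of the 12 arrays, lower at 7 h. The endothelial gene Cldn5 was called lower at 7 h, at a fitted change of -1.48. No OGD 7h array was well above background for Cldn5, and the bound described for Kcns1 put its OGD mean 1.18-fold below the control mean. The fibroblast genes Col1a1 and Col1a2 had 0.83 and 0.86 at 7 h and 1.504 and 1.492 at 24 h, not called and overlapping between groups, and were above control within each of the 6 slides, as Kcnj8 was. Anpep had 0.02 at 7 h and 1.71 (SE 0.95) at 24 h, where every OGD array was higher but it was not called. Its 24 h changes within the slides of replicates 1, 2 and 3 were 3.64, 1.17 and 0.31. The rest of the list was not called either. Pecam1 had -0.91 at 7 h, with every OGD array lower, and -0.32 at 24 h. Kdr had -0.66 and -0.86, and Acta2 0.14 and -0.27, all overlapping between groups. The part of these cells in the Kcnj8 change was not tested.

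Kcnj1 (Kir1.1 or ROMK), best known from the kidney, was called higher at both times (limma adjusted p = 0.418 at 7 h and adjusted p = 0.29 at 24 h). It read -3.74, -4.65 and -5.74 in control and -1.62, -2.03 and -4.45 after OGD at 7 h, and -6.25, -6.79 and -6.38 and -1.83, -4.42 and -5.01 at 24 h, with overlap at 7 h and none at 24 h. No control array was well above background and 2 OGD arrays were at each time. The bound described for Kcns1 put the Kcnj1 OGD mean 2.22-fold above the control mean at 7 h and 1.55-fold above it at 24 h. That OGD mean includes an array not well above background at each time, so the bound is not a sure minimum. A second Kcnj1 probe, not well above background on any array, gave 0.22 and -0.02. The call at 24 h ended without OGD 24h replicate 1, and that at 7 h ended in 8 of the 12 fits with 1 array left out.

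The Kcnj3, Kcnj6 and Kcnj9 genes encode the GIRK pores that inhibitory receptors open through G proteins. Kcnj3 (GIRK1) read 3.90, 3.59 and 3.11 in control and 2.58, 2.47 and 2.86 after OGD at 24 h, every OGD array lower, a change of -0.89 (SE 0.30, limma adjusted p = 0.29) that was -0.87 without OGD 24h replicate 1, against 0.04 at 7 h. Kcnj6 (GIRK2) had -0.39 and -1.59, the latter resting on 1 array, as it read -3.84, -0.15 and 0.52 after OGD, and was -0.25 without OGD 24h replicate 1. Kcnj9 (GIRK3) had 0.33, or -0.06 without OGD 7h replicate 1, and -0.04. Kcnj12 (Kir2.2) had -0.34 and -0.58, lower on every OGD array (0.19 and 0.02 with normexp; limma adjusted p = 0.319 at 24 h, and -0.38 there without Ctrl 24h replicate 1), and Kcnj10 (Kir4.1), the main Kir channel of astrocytes, -0.07 and -0.74 (-0.17 without OGD 24h replicate 1), well above background on 8 of the 12 arrays. For astrocytes as a list, all 7 markers were above 0 at 7 h (median 0.13) and 6 of 7 below 0 at 24 h (median -0.29). Within the slides of replicates 1, 2 and 3 their median at 24 h was -0.95, 0.10 and 0.11, so it was below 0 only on the slide of replicate 1.

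The promoter windows of the 4 members called in the same direction at both times are shown since their calls were shared by both times. Each window runs from 250 bases before to 50 bases after a start of the gene, 5′ to 3′ on the gene's strand, from RefSeq on build GRCr8, while the probes were designed on rn4. Capitals mark matches, on either strand, to 5 motifs: the hypoxia response core ACGTG, the AP-1 site TGANTCA, the cyclic AMP response element TGACGTCA, and CAGCACC and GGACAG, parts of the element bound by REST.
Kcnj4, chr7:112954498-112954797, minus strand: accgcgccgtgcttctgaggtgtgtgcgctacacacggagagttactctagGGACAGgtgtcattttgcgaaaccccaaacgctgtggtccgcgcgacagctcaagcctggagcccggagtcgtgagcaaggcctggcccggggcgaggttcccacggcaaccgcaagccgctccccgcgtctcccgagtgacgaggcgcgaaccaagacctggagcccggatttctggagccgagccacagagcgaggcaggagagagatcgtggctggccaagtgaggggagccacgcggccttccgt
Kcna6, chr4:161262303-161262602, minus strand: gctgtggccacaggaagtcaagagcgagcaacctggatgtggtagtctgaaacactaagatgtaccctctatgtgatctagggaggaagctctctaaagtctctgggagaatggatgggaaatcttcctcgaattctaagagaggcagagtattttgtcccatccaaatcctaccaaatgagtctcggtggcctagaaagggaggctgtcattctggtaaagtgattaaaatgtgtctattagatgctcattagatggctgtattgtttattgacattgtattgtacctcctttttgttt
Kcnj8, chr4:177246499-177246798, minus strand: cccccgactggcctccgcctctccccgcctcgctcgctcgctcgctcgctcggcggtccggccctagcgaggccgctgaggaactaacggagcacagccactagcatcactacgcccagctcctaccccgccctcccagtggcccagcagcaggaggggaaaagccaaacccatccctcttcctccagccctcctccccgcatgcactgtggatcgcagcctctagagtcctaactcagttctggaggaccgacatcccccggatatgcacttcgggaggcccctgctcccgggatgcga
Kcnj1, first start, chr8:39037742-39038041, plus strand: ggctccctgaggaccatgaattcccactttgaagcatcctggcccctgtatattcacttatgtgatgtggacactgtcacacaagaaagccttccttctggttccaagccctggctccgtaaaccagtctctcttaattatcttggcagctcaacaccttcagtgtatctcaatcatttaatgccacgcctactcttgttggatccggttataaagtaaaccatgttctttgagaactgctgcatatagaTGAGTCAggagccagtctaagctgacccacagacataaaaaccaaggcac
Kcnj1, second start, chr8:39061391-39061690, plus strand: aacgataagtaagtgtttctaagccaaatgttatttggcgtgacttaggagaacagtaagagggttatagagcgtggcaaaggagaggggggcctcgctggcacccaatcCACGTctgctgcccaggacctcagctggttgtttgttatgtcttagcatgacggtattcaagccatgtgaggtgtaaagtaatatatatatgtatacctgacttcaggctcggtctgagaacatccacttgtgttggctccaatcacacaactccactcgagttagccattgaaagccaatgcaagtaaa

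Kcnj4, lower after OGD, held 1 GGACAG, and Kcna6, lower too, and Kcnj8, higher, held none of the 5 motifs. The first Kcnj1 window held 1 TGANTCA and the second 1 ACGTG. Over the 67 windows of the 61 members in the table, ACGTG was in 9 (13.4%, against 19.3% of all 33469 windows), TGANTCA in 3 (4.5% against 7.3%), TGACGTCA in 0 (against 1.8%), CAGCACC in 6 (9.0% against 6.8%) and GGACAG in 20 (29.9% against 21.7%). Of the 12 windows of members called at either time, ACGTG was in 1 (8.3%), TGANTCA in 1 (8.3%), TGACGTCA in 0, CAGCACC in 0 and GGACAG in 2 (16.7%). The median share of G and C was 61.0% in Kcn windows and 51.7% in all windows. A match is a run of letters and not a bound site, and no test was made.

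The OGD effect at 24 h minus that at 7 h (the interaction) had an unadjusted limma p under 0.05 in 8 of 90 members, or 8.89%, where 3.43% of all named genes did, and the lowest adjusted p among them was 0.999976. In 4 of the 8 (Kcnip4, Kcng1, Kcns3 and Kcnj3) the value was lower at 24 h than at 7 h, and in the other 4 (Kcna10, Kcns1, Kcnn4 and Kcnk6) it was higher. Kcnip4 had a difference of -1.69 (SE 0.53). Kcns3 had -1.68 and Kcng1 -1.68, both with an SE of 0.66, and both lay above control at 7 h and below it at 24 h; with the spike-in scaling both were below 0 at 7 h as well. Kcnj3 had -0.94 (SE 0.42). Kcnk6 had 1.08 (SE 0.37). Kcns1, Kcna10 and Kcnn4, with 1.66, 1.68 and 1.105, were all dim at 7 h or at both times. Of all members, 50 had changes below 0 at both times, 14 above 0 at both, 16 above 0 at 7 h and below it at 24 h, and 10 the reverse. With the spike-in scaling 0 and with normexp 1 of the 90 had an interaction p under 0.05.

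**Figure D3:**
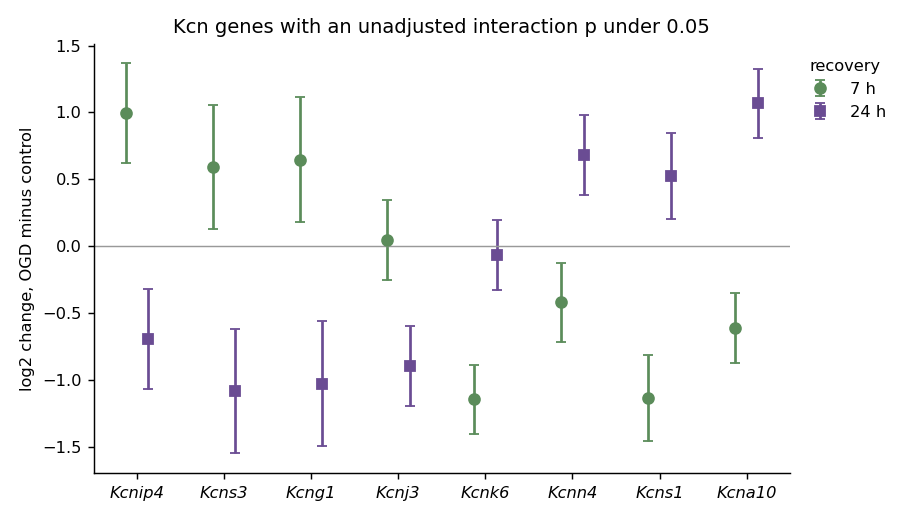
Points are the log2 changes (OGD minus control) of the 8 Kcn genes with an unadjusted interaction p under 0.05, at 7 h (circles) and 24 h (squares), with bars of 1 SE from limma. Kcnip4, Kcns3 and Kcng1 lay above 0 at 7 h and below it at 24 h, and Kcnn4, Kcns1 and Kcna10 the other way round; with normexp the 7 h values of Kcnn4, Kcns1 and Kcna10 were above 0, and with the spike-in scaling the 7 h values of Kcng1 and Kcns3 and the 24 h values of Kcnn4 and Kcns1 were below 0.

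Genes that work with these channels but carry other names were also mostly below control. Of 29 listed partners, 26 had a probe, and 19 of their changes were below 0 at 7 h (median -0.22) and 24 at 24 h (median -0.60). Within the slides of replicates 1, 2 and 3 the median at 24 h was -0.96, -0.26 and -0.0035. Called lower were 1 at 7 h (Lrrc52, a BK gamma subunit) and 4 at 24 h (among them Cntn2 and Lgi1, which help place and tune Kv1 channels on axons, and Abcc8), and 0 were called higher at either time (3 had an unadjusted limma p under 0.05 in that direction at 7 h and 0 at 24 h). The changes without OGD 24h replicate 1 were -0.50 for Cntn2, -0.53 for Lgi1 and -0.44 for Abcc8, and none of the 4 reached a fold of 2. Lrrc52 read -3.28, -2.78 and -3.33 in control and -5.61, -5.09 and -3.32 after OGD at 7 h, with the third OGD array inside the control range. It was well above background on 1 OGD 7h array and on no 24 h array. Dpp6, an auxiliary protein that joins Kv4 channels, had -0.33 and -0.64.

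Neuron markers were below control as well. Of 11, 9 were below 0 at 7 h (median -0.49) and all 11 at 24 h (median -0.62), with Eno2 called lower at both times and Syt1 at 24 h, the latter at -0.94 without OGD 24h replicate 1. Their mean level ran from 3.94 to 4.26 on control and 3.43 to 3.98 on OGD arrays at 7 h, and from 3.99 to 4.37 and 2.84 to 3.79 at 24 h, so no OGD array reached the control range at 24 h. The part of a lower neuron content in the Kcn values was not tested. The medians of the microglia markers were 0.09 and 0.22 and those of the oligodendrocyte markers -0.11 and 0.07. For the Kcn genes themselves, the mean level ran from -0.45 to -0.33 on control and -0.54 to -0.46 on OGD arrays at 7 h, and from -0.45 to -0.24 and -1.07 to -0.46 at 24 h.

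The 2 arrays of a replicate number and time, control and OGD, shared 1 of the 6 slides, so each change can be read within a slide. At 7 h the median Kcn change within the slides of replicates 1, 2 and 3 was -0.23, -0.08 and -0.16, with 55, 50 and 54 of 90 members below 0. At 24 h it was -0.81, -0.19 and -0.02, with 65, 59 and 46 below 0, while the median over all named genes was -0.15, -0.06 and 0.16 and that of the neuron markers -1.34, -0.44 and -0.07. The slide of replicate 1 at 24 h, which holds the dimmest array, thus had the largest Kcn change of the 6 slides. Without the OGD 24h replicate 1 array, 0 members were called lower at 24 h instead of 6 and the median was -0.25. Without OGD 24h replicate 3 there were 22, without OGD 24h replicate 2 there were 10, without Ctrl 24h replicate 3 there were 13 and without Ctrl 24h replicate 1 there were 3. At 7 h the count called lower was 1 instead of 4 without OGD 7h replicate 1, which left Kcns1.

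**Figure D4:**
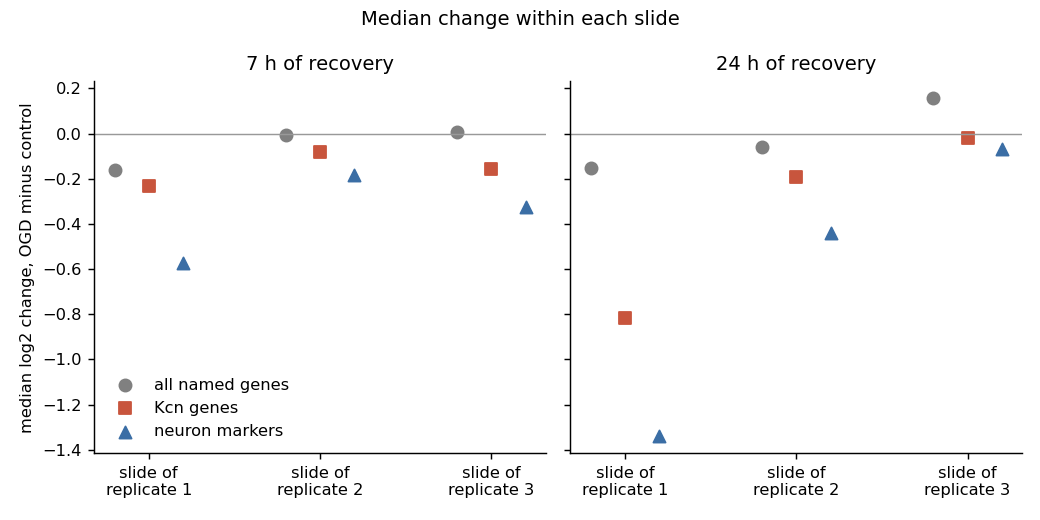
Points are the median log2 change (OGD minus control array of 1 slide) over all 15148 named genes (circles), the 90 Kcn genes (squares) and 11 neuron markers (triangles), for each of the 6 slides. The Kcn median lay between those of all genes and of the neuron markers on every slide and was lowest, at -0.81, on the slide of replicate 1 at 24 h.

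**Figure D5:**
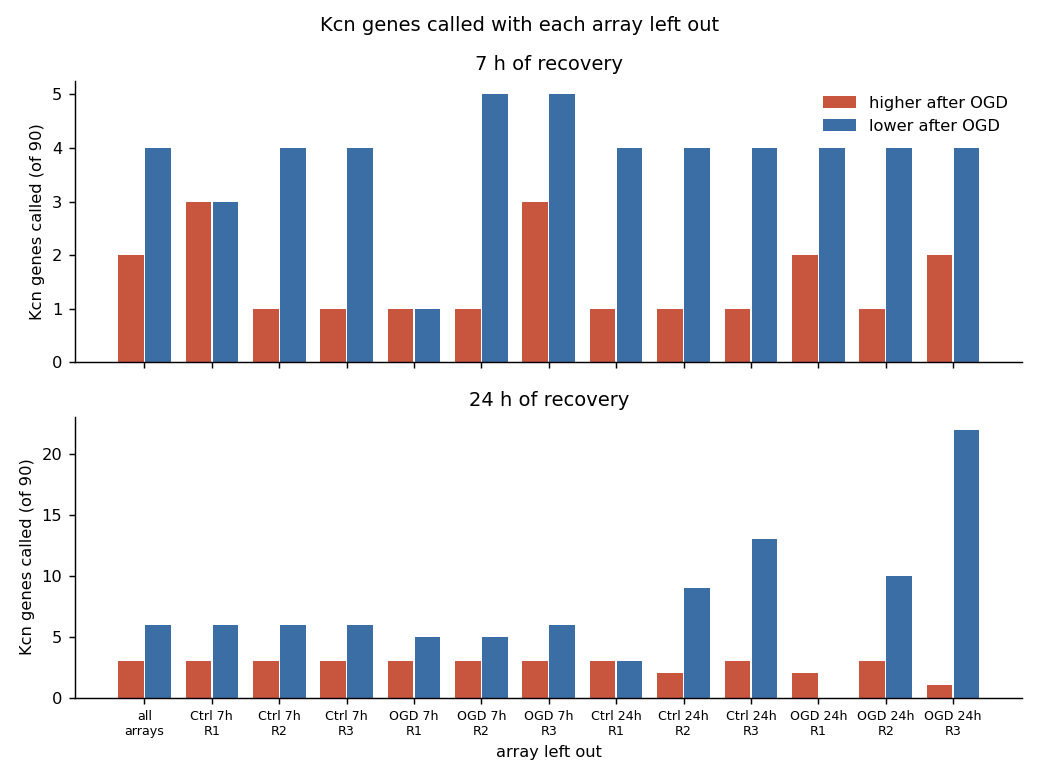
Bars are the numbers of Kcn genes, of 90, called higher or lower after OGD (unadjusted limma p under 0.05 and a fold of at least 2) with all arrays and with each of the 12 arrays left out, at 7 h and at 24 h. The count of lower calls at 24 h ran from 0 without OGD 24h replicate 1 to 22 without OGD 24h replicate 3.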

How the data were processed

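RNA of 12 rat hippocampal cultures was hybridised to Agilent Rat GE 4x44K v3 arrays, 3 for each of 4 groups taken from the sample labels. The authors scanned the arrays and extracted spot intensity values with Agilent Feature Extraction before they deposited them. The deposited log2 values of the authors, which they centred on the median of each array in BRB-ArrayTools, were used as an alternative. Here log2 processed intensities were centred on the array's median, outlier spots were left out, spots of a probe were averaged, and 30367 probes were fitted with limma 3.58.1 (R 4.3.3) in a model of 4 groups, with Benjamini-Hochberg adjustment over all probes. The prior degrees of freedom were 2.64, and 70 of 364404 values were missing. The number of arrays limits the precision.

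Accessions were matched to the RefSeq gene table without versions, which named 17996 probes and left 12371 unnamed. The genes named in the text are all called members, those with an unadjusted p under 0.05 at either time or for the interaction, and a list of well-known neuronal channels. Some genes that this rule names are not reported here. The members and lists were chosen with earlier results of these data known. The alternatives were the 75th percentile, quantile normalization, the spike-in probe, normexp (offset 50, on median signals), the authors' values, other filters and tests, the slide as a replicate block and each array left out. The code was tested on simulated data.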

Additional observations from a re-analysis of the deposited data

Results flagged for a closer look

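For 8 Kcn genes the OGD effect at 24 h differed from that at 7 h at an unadjusted limma interaction p under 0.05, with adjusted values of 0.999976, so none passed the correction over all probes. The difference, as log2 change at 24 h minus that at 7 h, was -1.69 for Kcnip4, -1.68 for Kcns3, -1.68 for Kcng1 and -0.94 for Kcnj3. It was 1.68 for Kcna10, 1.66 for Kcns1, 1.105 for Kcnn4 and 1.08 for Kcnk6. Kcna10 was well above background on 1 array and Kcnn4 on none at 7 h. The cause of these differences was not tested.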

How the results depend on the processing

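Of the Kcn genes called higher at 24 h (3 as reported), 1 was left with quantile normalization, 0 with the spike-in scaling, 0 with normexp, 1 by the methods' t-test and 1 with the slides of replicates 2 and 3 alone, and the count ran from 1 to 3 with each array left out. Of those higher at 7 h (2), the count was 0 with the spike-in scaling and 1 by the methods' t-test, by limma on each time alone and with probes of a gene averaged, and from 1 to 3 with each array left out. Lower at 24 h (6) were 0 by the methods' t-test, 3 by limma on each time alone and 0 with the slides of replicates 2 and 3 alone, and from 0 (without OGD 24h replicate 1) to 22 (without OGD 24h replicate 3). Lower at 7 h (4) were 1 with the spike-in scaling and 2 with those slides, and from 1 to 5 with each array left out. The interaction count (8) was 0 with the spike-in scaling, 1 with normexp and 4 to 11 with each array left out. The share of higher among called members was 33.3% at both times. At 7 h it was 0% with the spike-in scaling, 20% by limma on each time alone, 50% with those slides and 16.7% to 50% with each array left out. At 24 h it was 0% with the spike-in scaling and normexp, 14.3% with quantile normalization, 22.2% without dim probes and with probes averaged, 50% by limma on each time alone, 100% by the methods' t-test and with those slides, and 4.35% (without OGD 24h replicate 3) to 100% (without OGD 24h replicate 1) with each array left out.

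The Kcn median at 24 h was -1.43 with the spike-in scaling, -0.17 with normexp and -0.14 with the slides of replicates 2 and 3 alone, an alternative chosen after seeing the data, and ran from -0.56 to -0.25 with each array left out. At 7 h it was -0.10 with the 75th percentile, -0.99 with the spike-in scaling, 0.088 with normexp and -0.13 with the slides of replicates 2 and 3 alone, and ran from -0.27 to -0.16. Kcns1 at 7 h turned to 0.48 with normexp. The cause was not tested. With the slide as a fixed replicate block, 2 were called higher and 3 lower at 7 h, and 3 and 4 at 24 h; as a random block (correlation 0.018) the counts were 2 and 4, and 3 and 7. Deviations of arrays with the same number correlated at -0.05 to 0.111 at 7 h and -0.011 to 0.169 at 24 h, so the numbers were not taken as pairs. Of the 15 single calls, 12 were no longer past the threshold with the spike-in scaling, 10 by the methods' t-test and 8 with normexp, 1 of them with its sign turned. For genes near background, such as Kcnj1, Kcnj8 and Kcna10, the signal limits what can be said.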
